A study of Mus musculus with 4 samples.

Results

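The gene cluster described here holds 5 genes of the SIBLING family (small integrin-binding ligand, N-linked glycoproteins), Dspp, Dmp1, Ibsp, Mepe and Spp1, and the gene next to them, Sparcl1. These 6 genes, of 55487 in the count table, lie side by side on mouse chromosome 5. They were chosen by position and because their differences between ovariectomy and sham, seen earlier in these same libraries, ran in opposite directions. Their own ovariectomy and sham values are therefore given as a description, with no test. The libraries are bulk RNA-seq of skeletal stem cells sorted from the metaphyses of long bones of wild-type (WT) mice. There were 2 libraries from ovariectomized mice and 2 from sham-operated mice, all with the time 8 weeks, and both groups shared the genotype and the sort. Each sample title, in both groups, also ends in the word control, and what this refers to is not known here. Ovariectomized mice lose their ovarian oestrogen and serve as a model of bone loss after menopause. The labels name no strain, no age at surgery and no number of mice per library, and do not say whether 8 weeks is an age or a time after surgery. They also do not say that the libraries of a group came from separate animals, so the p-values below measure only the spread between these libraries, which may be technical.

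SIBLING proteins are acidic, heavily phosphorylated proteins of bone and dentin. They carry an Arg-Gly-Asp motif that binds integrins, and depending on the protein, its phosphorylation and its cleavage they start, shape or hold back the growth of mineral. The family belongs to the secretory calcium-binding phosphoproteins, a group of genes thought to have arisen by tandem duplication from Sparcl1, itself a relative of Sparc. In bone, osteoblasts, osteocytes and hypertrophic chondrocytes are known sources of one or more of them, and osteoclasts also make osteopontin, the product of Spp1.

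On GRCm38 the 6 genes span 362 kb, chr5:104079111-104441050. From left to right they are Sparcl1, which alone lies on the minus strand, then Dspp, Dmp1, Ibsp, Mepe and Spp1 on the plus strand. The gaps between neighbours are 57.0, 22.5, 85.1, 13.9 and 96.5 kb. In GENCODE M21 their longest transcripts have 11 exons for Sparcl1, 5 for Dspp, 6 for Dmp1, 7 for Ibsp, 3 for Mepe and 8 for Spp1. The longest coding sequences run from 885 bp in Spp1 to 2835 bp in Dspp.

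RefSeq (GRCm38.p6) gave a promoter window for 4 of the 6 genes, Dmp1, Ibsp, Mepe and Spp1. The 250 bases before the RefSeq start are printed for the gene that was higher after ovariectomy, Dmp1, and for Mepe and Spp1, which were lower, so that both directions can be read side by side. All are on the plus strand, at chr5:104202367-104202616 (Dmp1), chr5:104325079-104325328 (Mepe) and chr5:104434861-104435110 (Spp1). Capitals mark the letters ACCACA or their reverse complement TGTGGT, the core bound by RUNX factors, and CCAAT or its reverse complement ATTGG.
Dmp1: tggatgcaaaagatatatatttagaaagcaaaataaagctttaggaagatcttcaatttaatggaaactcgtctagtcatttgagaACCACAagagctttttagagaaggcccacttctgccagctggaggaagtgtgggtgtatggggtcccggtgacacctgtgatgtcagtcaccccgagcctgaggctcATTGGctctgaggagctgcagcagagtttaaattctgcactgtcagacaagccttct
Mepe: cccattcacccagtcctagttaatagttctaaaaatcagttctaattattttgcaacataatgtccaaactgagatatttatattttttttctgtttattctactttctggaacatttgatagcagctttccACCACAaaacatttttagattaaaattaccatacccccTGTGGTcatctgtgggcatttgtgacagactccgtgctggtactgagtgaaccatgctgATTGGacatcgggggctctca
Spp1: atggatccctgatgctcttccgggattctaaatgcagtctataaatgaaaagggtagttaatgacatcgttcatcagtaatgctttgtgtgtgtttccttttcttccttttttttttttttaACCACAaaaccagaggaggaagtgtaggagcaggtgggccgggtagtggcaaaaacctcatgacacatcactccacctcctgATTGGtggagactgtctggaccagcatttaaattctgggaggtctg
The RUNX letters stood 164 bases before the start in Dmp1, 118 and 80 in Mepe and 128 in Spp1, and none were in the Ibsp window, so 3 of 4 windows held them, against 14.0% of all 32817 RefSeq windows of this length. The CCAAT letters were in 4 of 4 windows, at 57 (Dmp1), 54 (Ibsp), 21 (Mepe) and 46 (Spp1) bases before the start, against 33.8% of all windows. These are 2 of 7 motifs searched on both strands. Of the others, the E-box CANNTG was in 4 of 4 windows (66.2% of all windows), TTTAAA in 2 (12.1%), the homeodomain letters TAATTA in 1 (4.85%), the nuclear receptor letters AGGTCA in 0 (14.0%) and the GC box GGGCGG in 0 (32.7%). These 4 windows had 38.0 to 45.6% GC, against a median of 52.4% over the 32817 windows. The shares are not matched for base composition, and none is read as enrichment. In these 4 windows no match overlapped a match to another motif. The RUNX and CCAAT letters are shared by a window of the gene that was higher and windows of genes that were lower. The Ibsp window, which is not printed, ends at a RefSeq start 116 bases inside the first exon of GENCODE. The RefSeq start lies 4 bases inside that exon for Dmp1, at its first base for Mepe and 7 bases before it for Spp1. A match is a description of the letters and not a measured binding site.

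The libraries held 18291436 to 23228031 counts after ovariectomy and 22935095 to 23721078 in sham. One count was worth 0.0423 to 0.0519 CPM (counts relative to the library total as scaled by TMM). The edgeR quasi-likelihood test with Benjamini-Hochberg adjustment called 716 of 17120 tested genes at an adjusted p under 0.05, of which 510 were higher and 206 lower after ovariectomy, and the median log2 fold change of all tested genes was -0.02. With library totals as the only scaling the calls were 718 higher and 156 lower, and the median of all genes was 0.11 log2 units above that with TMM. The labels name the antigens stained for the sort but not the gate. Of these antigens, Itgav (CD51) was at 69.0 and 72.0 CPM after ovariectomy and 70.4 and 67.3 CPM in sham, and Cd200 fell to 173 and 155 CPM after ovariectomy, against 237 and 305 CPM in sham (edgeR adjusted p = 0.0462, between 4.71e-05 and 0.527 over the 12 alternatives). The Cd200 call was lost with library totals (0.0531). It was also lost without ovariectomy 1 and without ovariectomy 2. Every call of the whole fit was lost there, so such a loss, here and below, says nothing about a single gene. Ptprc (CD45), the marker of blood cells, was at 3.55 and 6.44 CPM after ovariectomy and 9.55 and 5.25 CPM in sham. Eng (CD105) was at 75.2 and 83.1 CPM after ovariectomy and 21.6 and 52.1 CPM in sham, Tek (Tie2) at 7.53 and 9.76 CPM after ovariectomy and 0.223 and 5.52 CPM in sham, and Enpep (6C3) at 4.4 and 3.64 CPM after ovariectomy and 1.52 and 1.91 CPM in sham. In each of these 3 genes both ovariectomy libraries lay above both sham libraries, and none passed by edgeR (adjusted p = 0.150, 0.474 and 0.220). Groups without overlap, in either direction, were found in 49.3% of all tested genes. Eng passed under 5 of 12 alternatives (adjusted p between 1.34e-08 and 0.693) and Tek under 2 of 12 (3.42e-05 to 0.857). Thy1 (CD90) had 3 to 5 counts and was not tested. Osteoblast and chondrocyte genes were abundant in all 4 libraries, with Col1a1 between 57192 and 88749 CPM and Col2a1 between 36879 and 73169 CPM. In bulk libraries fewer cells of a type and less RNA per cell cannot be told apart.

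Of the 6 genes, 5 passed the filter on low counts. Sparcl1 and Dmp1, the tested genes on the left of the cluster, were higher after ovariectomy, and Ibsp, Mepe and Spp1, on the right, were lower. In 5 of these 5 genes the values of the ovariectomy and sham libraries did not overlap, which was also so for 49.3% of all tested genes. The log2 fold changes ran from -3.31 to 2.44, and all 5 signs were kept under the 12 alternative settings tried. Where groups do not overlap, leaving out a library can hardly turn a sign, so this lends the directions no support. For comparison, 4.18% of all tested genes were called in either direction, 2.98% higher and 1.20% lower. Nothing about the 5 genes is read from these shares, since this contrast chose them.

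**Figure D1:**
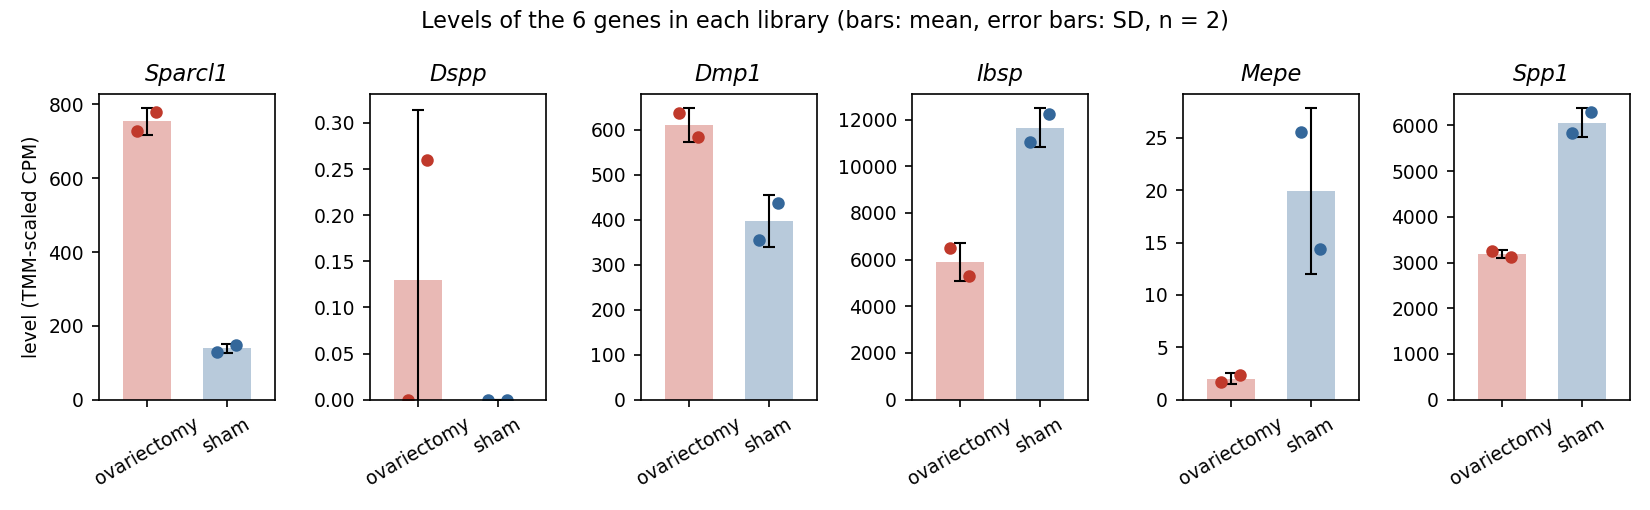
Level of each gene in TMM-scaled CPM, on a linear axis of its own for each gene that starts at 0, with ovariectomy left of sham. Points are libraries, bars are means and error bars are SD (n = 2). Sparcl1 and Dmp1 sit higher in both ovariectomy libraries, Ibsp, Mepe and Spp1 sit lower, and Dspp had counts in 1 ovariectomy library alone.

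Ibsp encodes bone sialoprotein, which binds collagen and hydroxyapatite and can seed mineral. It was at 6488 and 5313 CPM in ovariectomy libraries 1 and 2, against 11060 and 12246 CPM in sham libraries 1 and 2. Both ovariectomy libraries lay below both sham libraries, and the pairs stood well apart. The means were 5901 ± 831 CPM after ovariectomy and 11653 ± 839 CPM in sham (SD, n = 2 each), a log2 fold change of -0.98 ± 0.12 (SE), or 1.97-fold lower. Leaving out each library in turn gave log2 fold changes of -1.12 to -0.83. Per kilobase of exon Ibsp was the most abundant of the 6 genes in each library, at 3137 and 2569 CPM per kb after ovariectomy and 5348 and 5922 CPM per kb in sham. By mean CPM per kb it ranked 8 among 17109 genes after ovariectomy and 5 in sham.

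Spp1 encodes osteopontin, a cytokine-like matrix protein that binds integrins and CD44 and slows crystal growth when phosphorylated. It was at 3241 and 3129 CPM after ovariectomy, against 5830 and 6284 CPM in sham. The ovariectomy libraries were close to each other and both lay below the sham libraries. Means were 3185 ± 79.4 CPM after ovariectomy and 6057 ± 321 CPM in sham (SD, n = 2 each), a log2 fold change of -0.93 ± 0.09 (SE), 1.90-fold lower, with -0.98 to -0.86 when each library was left out. Per kilobase it stood at 1967 and 1899 CPM per kb after ovariectomy and 3537 and 3813 CPM per kb in sham, next below Ibsp in each library. Spp1 shares 309 bp, or 18.8% of its exon length, with Gm42793, an annotated transcript of unknown kind (TEC) on the same strand. Reads of the shared stretch cannot be traced to 1 gene, and whether they were counted for either gene is not known here.

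Ibsp and Spp1 kept nearly the same proportion to each other. The ratio of Spp1 to Ibsp CPM was 0.500 and 0.589 after ovariectomy and 0.527 and 0.513 in sham, so the ovariectomy values enclosed the sham values. The difference in log2 ratio was 0.06. After centring log2 CPM over the 4 libraries, the root mean square difference between the patterns of Ibsp and Spp1, which have Mepe between them, was 0.0903 log2 units, against 0.781 to 2.85 for the other pairs of tested genes in the cluster. Both genes were chosen from this contrast and both were lower, so this likeness follows in part from the choice. Among genes that averaged 5 CPM or more, 27 lay within 0.1 log2 units of Ibsp and 54 of Spp1.

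Mepe encodes matrix extracellular phosphoglycoprotein, a product of osteocytes and osteoblasts whose acidic C-terminal peptide (ASARM) inhibits mineralization once released. It had 39 and 46 counts after ovariectomy, against 572 and 322 counts in sham, or 1.65 and 2.39 CPM against 25.5 and 14.3 CPM. Per kilobase it was the least abundant of the 5 tested genes in every library, at 0.98 and 1.42 CPM per kb after ovariectomy and 15.2 and 8.52 CPM per kb in sham. Its groups did not overlap, and the sham libraries differed from each other more than the ovariectomy libraries did on the CPM scale. The log2 fold change was -3.31 ± 0.39 (SE), 9.90-fold lower after ovariectomy, with -3.65 to -2.83 when each library was left out. From the summed counts, 85 after ovariectomy and 894 in sham, the ratio of sham to ovariectomy was 10.1. This ratio is a description only, since Mepe was chosen from this contrast. By mean CPM per kb Mepe ranked 10316 among 17109 genes after ovariectomy and 2728 in sham.

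Dmp1 encodes dentin matrix protein 1, which is cleaved into collagen- and mineral-binding fragments and is known as a product of osteocytes that holds down the phosphate hormone FGF23. It was at 637 and 584 CPM after ovariectomy, against 355 and 438 CPM in sham. Both ovariectomy libraries lay above both sham libraries, with the narrowest separation on the log2 scale among the 5 tested genes. Means were 610 ± 37.3 CPM after ovariectomy and 397 ± 58.3 CPM in sham (SD, n = 2 each), a log2 fold change of 0.62 ± 0.13 (SE), 1.54-fold higher, with 0.48 to 0.79 when each library was left out. Per kilobase Dmp1 was at 230 and 211 CPM per kb after ovariectomy and 129 and 158 CPM per kb in sham, below Ibsp and Spp1 in each library.

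Ratios of Dmp1 to Ibsp and to Mepe put the opposite directions on one scale. Since the genes were chosen for those directions, the direction of these ratios follows from the choice. They are of CPM without scaling by length, and serve only to compare libraries. The ratio of Dmp1 to Ibsp CPM was 0.0981 and 0.110 after ovariectomy and 0.0321 and 0.0358 in sham, a difference of 1.62 log2 units. The ratio of Dmp1 to Mepe, both known from osteocytes, was 386 and 244 after ovariectomy and 13.9 and 30.5 in sham, a difference of 3.90 log2 units. Mepe also lay lower relative to its neighbour Ibsp, with Mepe to Ibsp ratios of 0.000254 and 0.000450 after ovariectomy and 0.00231 and 0.00117 in sham.

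Sparcl1 encodes SPARC-like protein 1, also called hevin, a secreted counter-adhesive protein known from blood vessels, astrocytes and connective tissue. It was at 728 and 779 CPM after ovariectomy, against 130 and 148 CPM in sham. The libraries of each group lay close together and the groups were far apart. Means were 754 ± 36.2 CPM after ovariectomy and 139 ± 13.0 CPM in sham (SD, n = 2 each), a log2 fold change of 2.44 ± 0.12 (SE), 5.43-fold higher, with 2.35 to 2.55 when each library was left out. Per kilobase it stood at 248 and 265 CPM per kb after ovariectomy and 44.1 and 50.4 CPM per kb in sham, above Dmp1 after ovariectomy and below it in sham. The ratio of Sparcl1 to Dmp1 CPM was 1.14 and 1.33 after ovariectomy and 0.365 and 0.338 in sham. Its rank by mean CPM per kb among 17109 genes was 125 after ovariectomy and 680 in sham.

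Dspp encodes dentin sialophosphoprotein, the main non-collagenous protein of dentin. It had 0 and 5 counts in ovariectomy libraries 1 and 2, and 0 counts in both sham libraries. Sham counts of 0 allow up to 0.134 CPM per library by the limit of 3 counts. It did not pass the filter and no fold change is given. The single library with counts was ovariectomy 2, at 0.260 CPM.

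Along the tested members the sign of the difference switched once in the 85.1 kb gap between Dmp1 and Ibsp. Among the 4 adjacent pairs of tested members (Sparcl1 and Dmp1 counted as adjacent), 1 had opposite signs. Over the genome, 6780 of 14284 adjacent pairs of tested protein-coding genes had opposite signs, or 47.5%, and of the 57 such pairs in which both genes were called 11 were opposite, or 19.3%. Opposite signs were thus common among all pairs and less common where both genes were called. Nothing about the cluster is read from these shares, since it was chosen for opposite directions. Within 500 kb of the cluster GENCODE lists 27 further genes, some of them between or over the members, of which 13 were tested. By edgeR none of the 13 was called (0 higher, 0 lower), with 1 lower at an unadjusted p under 0.05, and DESeq2 and limma-voom each called 1, the Spp1-overlapping Gm42793. Their median log2 fold change was 0.10, against -0.02 over all tested genes.

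**Figure D2:**
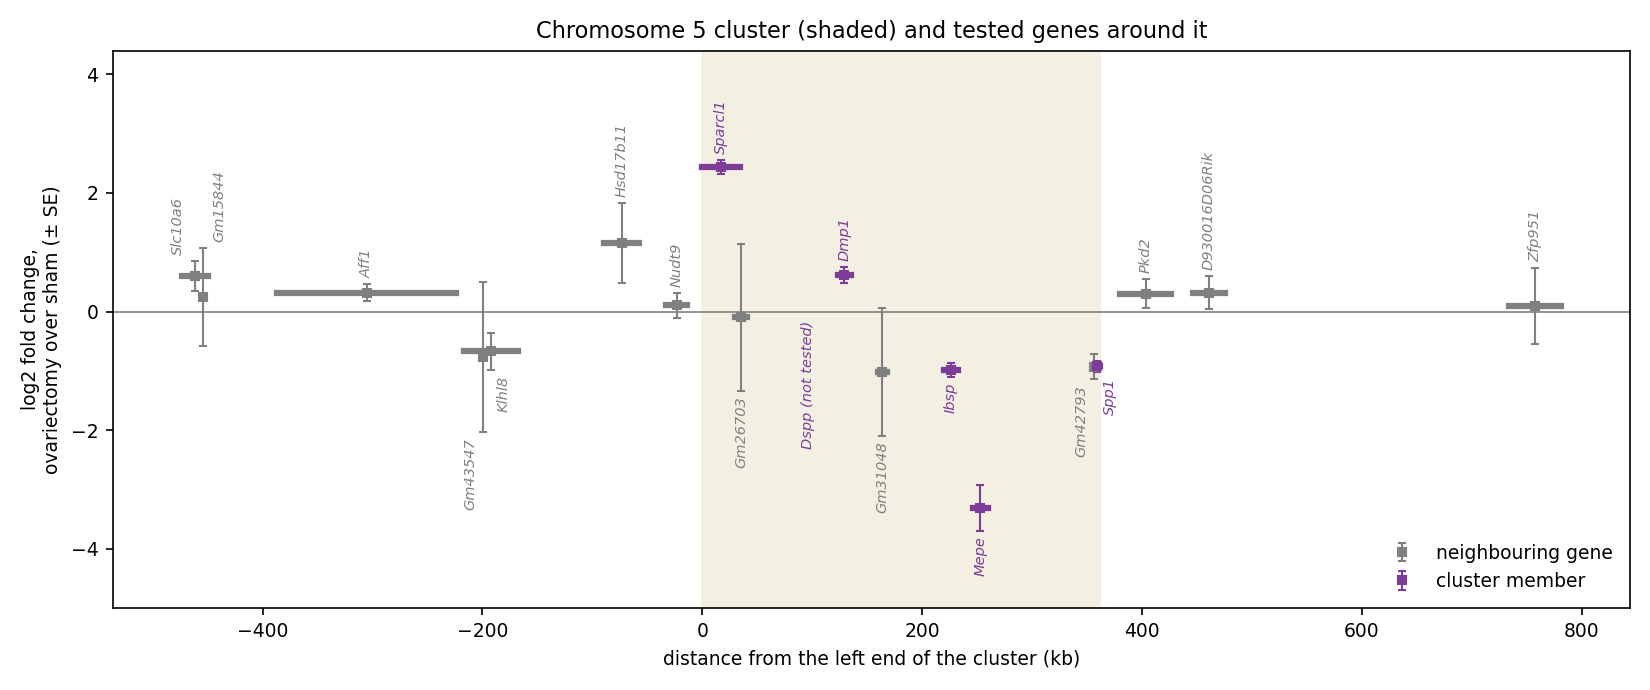
Log2 fold change (ovariectomy over sham, ± SE) of each tested gene by its distance in kb along chromosome 5 from the left end of the cluster, which is shaded. Purple marks cluster genes, grey marks neighbours, and horizontal bars span the gene. Sparcl1 at 2.44 and Mepe at -3.31 lie farthest from 0, and the sign of the cluster genes switches between Dmp1 and Ibsp.

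Among the 13, 7 are protein-coding. The nearest of these to Sparcl1 is Nudt9, which encodes an ADP-ribose pyrophosphatase. It was at 49.0 and 41.4 CPM after ovariectomy and 34.1 and 50.3 CPM in sham (log2 fold change 0.10 ± 0.21 SE, edgeR adjusted p = 0.882). Beyond Spp1 the nearest is Pkd2, the gene of a polycystin calcium channel. It was at 24.0 and 16.4 CPM after ovariectomy and 15.1 and 17.7 CPM in sham (log2 fold change 0.30 ± 0.25 SE, edgeR adjusted p = 0.610). In both genes the groups overlapped, and the sign of Nudt9 turned without sham 1 or without ovariectomy 1 (log2 fold changes -0.15 and -0.01). Gm42793 was at 11.2 and 13.8 CPM after ovariectomy and 23.0 and 24.5 CPM in sham (log2 fold change -0.93 ± 0.21 SE, edgeR adjusted p = 0.0610). It passed under 6 of 12 alternatives, with adjusted p between 0.00609 and 0.491, and whether its reads belong to Spp1 was not tested. Hsd17b11, a hydroxysteroid dehydrogenase gene 57.2 kb from the cluster, was at 1.78 and 2.34 CPM after ovariectomy and 1.12 and 0.712 CPM in sham, without overlap (log2 fold change 1.16 ± 0.68 SE, edgeR adjusted p = 0.435). Its log2 fold change was larger than that of Dmp1, and so was its SE. Klhl8, a kelch-like gene, was at 4.90 and 7.01 CPM after ovariectomy and 9.14 and 9.84 CPM in sham (log2 fold change -0.67 ± 0.31 SE, edgeR adjusted p = 0.305), also without overlap. The groups of Gm42793, Aff1, Slc10a6 and Gm31048 did not overlap either, nor did those of 49.3% of all tested genes. Aff1, a transcription elongation factor gene, had a log2 fold change of 0.32 ± 0.14 and Zfp951 one of 0.10 ± 0.64 (SE, edgeR adjusted p = 0.286 and 0.969). Slc10a6, a steroid-sulfate transporter gene, had a log2 fold change of 0.60 ± 0.26 (SE, edgeR adjusted p = 0.273) and passed under 1 of 12 alternatives, without sham 1 (adjusted p = 0.0473, with 0.734 as the highest of the alternatives). Gm31048, a long noncoding RNA in the gap where the sign switched, was at 0.465 and 0.208 CPM after ovariectomy and 0.758 and 0.623 CPM in sham. These are low levels, of 11 and 4 counts after ovariectomy and 17 and 14 counts in sham (log2 fold change -1.02 ± 1.08 SE, edgeR adjusted p = 0.716).

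**Figure D3:**
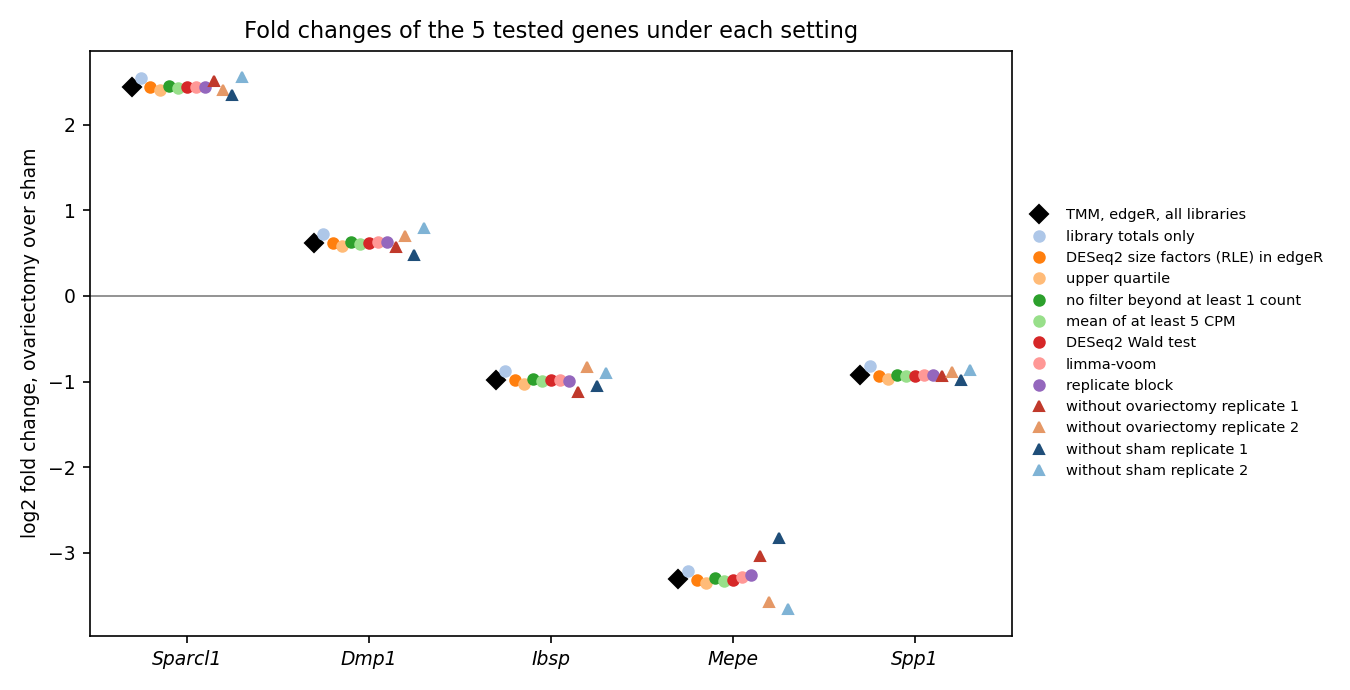
Log2 fold change (ovariectomy over sham) of the 5 tested genes under the main setting and the 12 alternatives. Each point is 1 setting. No point crosses 0, and the widest spread is that of Mepe, between -3.65 and -2.83. The genes were chosen for these directions, so the kept signs lend them no support.

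Genes with the most similar pattern over the 4 libraries were found by the root mean square difference of centred log2 CPM, among genes that averaged 5 CPM or more. Those nearest Sparcl1 were Steap3 (0.0801 log2 units), a metalloreductase gene, Igfbp4 (0.0903), which encodes an IGF-binding protein, and Ccn5 (0.0942), a matricellular protein gene. Nearest Dmp1 were Pcolce (0.0127), the enhancer of procollagen C-proteinase, Cd14 (0.0145), a co-receptor for bacterial lipopolysaccharide, and Slc48a1 (0.0262), a haem transporter gene. Nearest Ibsp were Scin (0.0314), which encodes the actin-severing protein scinderin, Kctd4 (0.0409) and the homeobox gene Hoxc9 (0.0434). Nearest Spp1 were Smoc2 (0.0315), Sfrp5 (0.0329), a secreted Wnt antagonist gene, and the pseudogene Itih5l-ps (0.0335). The patterns nearest Mepe were Rn7sk (0.309), a small nuclear RNA, Zfp296 (0.513) and Oca2 (0.715), all much farther from it than the nearest genes were from the other members. With 4 libraries in 2 groups many genes share a pattern by the group difference alone: 140 genes lay within 0.1 log2 units of Dmp1, 54 of Spp1, 27 of Ibsp, 3 of Sparcl1 and 0 of Mepe.

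Receptors of these proteins were read from a list of 11 genes, integrin subunits and Cd44, with 10 tested. Of the 10, 2 rose and 0 fell, against 2.98% higher and 1.20% lower over all tested genes, and the median log2 fold change was 0.38 against -0.02 over all genes. Cd44, the hyaluronan receptor that also binds osteopontin, was at 195 and 195 CPM after ovariectomy, against 48.1 and 52.5 CPM in sham, and rose 3.87-fold (log2 fold change 1.95 ± 0.13 SE, edgeR adjusted p = 0.000795). Itgb8, the integrin subunit that pairs with Itgav, was at 12.4 and 12.9 CPM after ovariectomy, against 0.268 and 1.51 CPM in sham (log2 fold change 3.82 ± 0.64 SE, edgeR adjusted p = 0.0207, with 3.06 without sham 1 and 5.55 without sham 2). Itgav and Itgb3, the subunits of the classical osteopontin receptor, had log2 fold changes of 0.03 ± 0.13 and -0.18 ± 0.40 (SE), with adjusted p of 0.942 and 0.889 by edgeR, and their groups overlapped. Itga5, a fibronectin receptor subunit that also binds osteopontin, was at 193 and 227 CPM after ovariectomy and 107 and 141 CPM in sham (edgeR adjusted p = 0.0527), and passed under 8 of 12 alternatives (adjusted p between 1.62e-05 and 0.526). The calls of Cd44 and Itgb8 were lost without ovariectomy 1 and without ovariectomy 2, as was every other call of the whole fit.

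Among 16 kinases, phosphatases and proteases that act on the encoded proteins, 13 were tested, of which 2 rose and 3 fell (2.98% higher and 1.20% lower over all tested genes), with a median log2 fold change of -0.04 against -0.02 over all genes. Ctsk and Ctsb, which encode lysosomal cathepsins K and B, rose. Ctsk was at 306 and 292 CPM after ovariectomy against 143 and 152 CPM in sham (log2 fold change 1.02 ± 0.11 SE, edgeR adjusted p = 0.00537). Ctsb had 1867 and 1878 CPM after ovariectomy against 1159 and 1131 CPM in sham, with a log2 fold change of 0.71 ± 0.09 (SE, edgeR adjusted p = 0.00841). Alpl, the alkaline phosphatase that hydrolyses pyrophosphate and dephosphorylates osteopontin, fell to 2079 and 1684 CPM after ovariectomy, against 3008 and 3784 CPM in sham (log2 fold change -0.85 ± 0.15 SE, edgeR adjusted p = 0.0231). Fam20c, the Golgi kinase that phosphorylates SIBLING proteins, fell to 301 and 317 CPM after ovariectomy, against 551 and 451 CPM in sham (log2 fold change -0.70 ± 0.13 SE, edgeR adjusted p = 0.0311, rising to 0.0601 with library totals). Mmp9, named here after its values were seen as the remaining called gene, was at 17.6 and 23.8 CPM after ovariectomy and 47.6 and 106 CPM in sham (log2 fold change -1.90 ± 0.36 SE, edgeR adjusted p = 0.0341, with -1.19 without sham 2). Phex, the endopeptidase that cleaves ASARM peptides, had a log2 fold change of -0.12 ± 0.18 (SE, edgeR adjusted p = 0.819). Each of the 5 calls was lost without ovariectomy 1 and without ovariectomy 2, as was every other call of the whole fit.

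Of 17 transcriptional regulators of bone matrix genes, all tested, 1 rose and 4 fell (2.98% and 1.20% over all tested genes), with a median log2 fold change of -0.08 against -0.02 over all genes. Sp7 (osterix), required for osteoblast formation, fell to 131 and 111 CPM after ovariectomy, against 237 and 237 CPM in sham (log2 fold change -0.97 ± 0.13 SE, edgeR adjusted p = 0.00893). Dlx5, a homeobox gene that activates Ibsp and other bone genes, fell to 39.5 and 32.3 CPM after ovariectomy, against 80.3 and 66.6 CPM in sham (log2 fold change -1.03 ± 0.17 SE, edgeR adjusted p = 0.0192). Mef2c, a MADS-box factor gene, and Vdr, the vitamin D receptor, which induces Spp1, fell by 0.60 and 0.60 log2 units (edgeR adjusted p = 0.0391 and 0.0459). With library totals these last calls were lost (0.0560 and 0.0764), and Vdr was also lost without sham 2. Dlx3, named after its values were seen as the remaining called gene, rose, at 45.1 and 47.0 CPM after ovariectomy against 13.8 and 24.7 CPM in sham (log2 fold change 1.26 ± 0.27 SE, edgeR adjusted p = 0.0485). Runx2, whose factor binds the RUNX letters shown above, was at 89.9 and 72.4 CPM after ovariectomy and 104 and 106 CPM in sham (log2 fold change -0.38 ± 0.15 SE, edgeR adjusted p = 0.228). All 5 calls were lost without ovariectomy 1 and without ovariectomy 2, as was every other call of the whole fit.

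Of 15 mineral and phosphate partners 14 were tested, of which 0 rose and 2 fell (2.98% and 1.20% over all tested genes), with a median log2 fold change of -0.36 against -0.02 over all genes. Omd, osteomodulin, a keratan sulfate proteoglycan of bone, fell to 172 and 160 CPM after ovariectomy, against 340 and 300 CPM in sham (log2 fold change -0.95 ± 0.12 SE, edgeR adjusted p = 0.00828). Smpd3, a sphingomyelinase needed for mineralization, fell to 1696 and 1427 CPM after ovariectomy, against 2237 and 2379 CPM in sham (log2 fold change -0.56 ± 0.11 SE, edgeR adjusted p = 0.0404, rising to 0.0575 with library totals). Both calls were lost without ovariectomy 1 and without ovariectomy 2, as was every other call of the whole fit. In the called genes named from these lists so far the ovariectomy and sham libraries did not overlap, as in 49.3% of all tested genes. Fgf23, the hormone held down by Dmp1, was not tested. It had 4 and 0 counts in ovariectomy libraries 1 and 2, and 7 and 0 counts in sham libraries 1 and 2.

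The relatives of Sparcl1 outside the cluster did not share its direction as a group. Of the 7 tested SPARC family genes 1 rose and 2 fell (2.98% and 1.20% over all tested genes), and their median log2 fold change was -0.64 against -0.02 over all genes. Smoc2, a secreted modular calcium-binding protein gene, fell to 428 and 436 CPM after ovariectomy, against 809 and 847 CPM in sham (log2 fold change -0.94 ± 0.10 SE, edgeR adjusted p = 0.00482). Sparc itself, which encodes osteonectin, fell to 22397 and 17158 CPM after ovariectomy, against 28944 and 32868 CPM in sham (log2 fold change -0.64 ± 0.13 SE, edgeR adjusted p = 0.0415). Fstl1, a follistatin-like glycoprotein gene, rose to 310 and 378 CPM after ovariectomy, against 156 and 166 CPM in sham (log2 fold change 1.10 ± 0.14 SE, edgeR adjusted p = 0.00697). These 3 calls were lost without ovariectomy 1 and without ovariectomy 2, as was every other call of the whole fit. Of 6 enamel and tooth relatives outside the cluster, 5 were matched to the table and 3 were tested, and edgeR, DESeq2 and limma-voom each called 0, with 0 at an unadjusted p under 0.05 by edgeR. Ambn, the ameloblastin gene, was at 12.3 and 6.54 CPM after ovariectomy and 12.1 and 14.8 CPM in sham, and Enam, the enamelin gene, had a log2 fold change of 1.42 (edgeR adjusted p = 0.503 and 0.667). Enam did not reach a mean of 5 CPM, and its log2 fold change was 3.30 without sham 1 and 0.65 without sham 2.

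**Figure D4:**
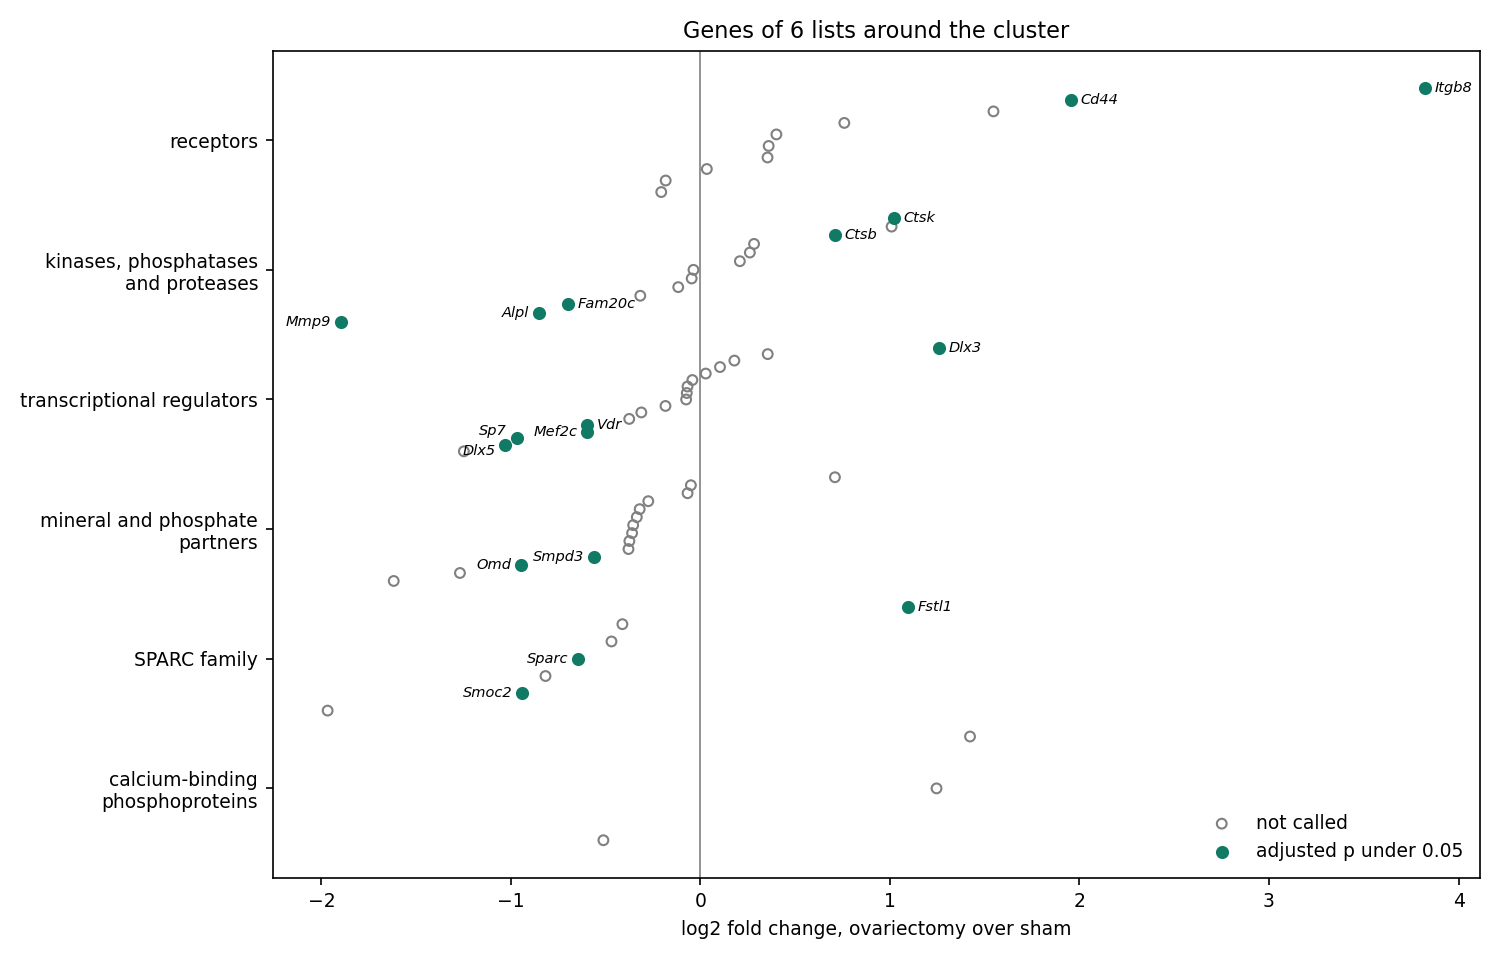
Log2 fold change (ovariectomy over sham) of each tested gene in 6 lists of partners and relatives, with called genes (edgeR adjusted p under 0.05) marked and named. Called genes lie on both sides of 0 in the lists of kinases and proteases, regulators and the SPARC family, and among receptors both called genes, Cd44 and Itgb8, lie above 0.

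Markers of the cell types that could hold these transcripts were counted in the same fit, in which 2.98% of all tested genes were called higher and 1.20% lower. Called markers ranged from none in the macrophage and endothelial lists to nearly all in the chondrocyte list. Beside Ibsp, Spp1 and Mepe stand the skeletal lists. Of 8 chondrocyte markers 7 fell and 0 rose, with summed levels of 85913 and 76613 CPM after ovariectomy and 143276 and 134816 CPM in sham. Of 6 hypertrophic chondrocyte markers 5 fell, with summed levels of 1864 and 1611 CPM after ovariectomy and 3643 and 4005 CPM in sham. Of 10 osteoblast markers 3 fell and 0 rose, with summed levels of 77489 and 70229 CPM after ovariectomy and 79245 and 112324 CPM in sham. The sums of all 3 lists were lower in both ovariectomy libraries, by a narrow margin for osteoblast markers, and Col1a1 made up most of that sum.

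Beside Dmp1 and Mepe stand 6 osteocyte markers, of which 5 were tested, 1 rose (Pdpn) and 0 fell, with summed levels of 127 and 136 CPM after ovariectomy and 94.5 and 90.2 CPM in sham. The median log2 fold change of the 5 was -0.12, so the sums do not stand for the list as a whole. Phex was at 30.9 and 36.4 CPM after ovariectomy and 39.9 and 33.1 CPM in sham. Sost, the osteocyte Wnt inhibitor gene, was at 0.465 and 1.19 CPM after ovariectomy and 3.26 and 1.83 CPM in sham. Osteoclast markers, which bear on Spp1, summed to 368 and 357 CPM after ovariectomy and 208 and 280 CPM in sham. Of 5 tested, 1 was called higher (Ctsk) and 1 lower (Mmp9), and Dcstamp, Ocstamp and Calcr did not pass the filter. Ctsk made up most of the sum, at 306 and 292 CPM after ovariectomy and 143 and 152 CPM in sham. Macrophage markers summed to 55.2 and 96.4 CPM after ovariectomy and 39.4 and 44.5 CPM in sham. Of these 6, 0 were called by edgeR (3 at an unadjusted p under 0.05), 1 by DESeq2 and 0 by limma-voom.

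Beside Sparcl1 stand stromal and vessel markers. Of 9 fibroblast markers 7 rose, with summed levels of 1564 and 1470 CPM after ovariectomy and 1252 and 1365 CPM in sham. Their median log2 fold change was 2.02 and the lowest was -0.35, so the sums do not stand for each marker. By edgeR 1 was lower at an unadjusted p under 0.05, and DESeq2 called 1 lower. Of 9 pericyte and smooth muscle markers 3 rose, with summed levels of 612 and 685 CPM after ovariectomy and 341 and 368 CPM in sham. Of 10 endothelial markers 0 were called by edgeR (1 at an unadjusted p under 0.05), 0 by DESeq2 and 1 by limma-voom, and the calls changed with the sham library left out. Without sham 2, 7 were called higher and 0 lower, and without sham 1, 0 higher and 1 lower. Their summed levels were 129 and 159 CPM after ovariectomy and 39.2 and 118 CPM in sham, and the endothelial cadherin gene Cdh5 was at 0 in sham 1. Of 6 markers of LepR stroma 1 rose (Cxcl12), with summed levels of 289 and 397 CPM after ovariectomy and 128 and 196 CPM in sham. The part of any of these cell types in the values of the 6 genes was not tested. All calls in these lists were lost without either ovariectomy library, as was every other call of the whole fit.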

How the data were processed

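Bulk RNA-seq libraries of sorted mouse skeletal stem cells were prepared from TRIzol-extracted RNA with a SMARTER mRNA kit, per the labels' protocols. The authors deposited 1 table of raw read counts per Ensembl gene for 4 libraries. The submitters' processing notes name Trim Galore 0.6.6, featureCounts 2.0.1 and the build GRCm38 (mm10). Aligner, annotation release and strand setting: not given in the sources used here, so reads of overlapping genes cannot be told apart. GENCODE M21 gave a symbol for 55227 of 55487 IDs. The other 260 held at most 0.00462% of a library's counts.

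With edgeR 4.0.16 (R 4.3.3), filterByExpr kept 17120 genes, TMM scaled the libraries, and a two-sided quasi-likelihood test with group as the model's one term was adjusted by Benjamini-Hochberg over these genes. The common biological coefficient of variation was 0.317. Standard errors are the absolute log2 fold change over the square root of F. Alternatives used limma 3.58.1, DESeq2 1.42.0, other scalings, filters, a replicate block and each library left out. In 5 simulations with 200 changed genes each, the edgeR test of this comparison over 17120 genes called 33.7% of the genes shifted by 1 on the log2 scale and 68.8% at a shift of 2, and 42 of 517 calls were unchanged genes.

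The 6 genes and all gene lists were chosen with earlier results of these data known. The named genes are the 6, tested neighbours within 500 kb, up to 4 called genes per partner list by smallest p (2 where none was called), the 3 most similar patterns per tested gene, and defining markers. Other genes were named after their values were seen, namely Mmp9, Dlx3, Itga5, Itgb3, Itgav, Phex, Runx2 and Fgf23.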

Additional observations from a re-analysis of the deposited data

How the results depend on the processing

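The directions of the 5 tested cluster genes were the same under all 12 alternatives. These genes were chosen for their directions and their groups did not overlap, so the kept signs lend the directions no support. The 716 genes called in all became 1656 with no filter beyond 1 count, 1105 with a mean of at least 5 CPM and 1406 by DESeq2, and 0 to 1835 with a library left out. Without ovariectomy 1 or 2 nothing was called by edgeR (0 genes), though 1788 and 1618 had an unadjusted p under 0.05, and there the lone library is assumed to vary like the sham pair. The 2 called receptors became 4 by DESeq2 and 0 to 4 with a library left out. The 5 regulators became 3 with library totals and 0 to 5 with a library left out. The 2 mineral partners became 1 with library totals, 4 with no filter and 0 to 5 with a library left out. The kinase and protease list (5) ranged from 0 to 6, the SPARC family (3) from 0 to 4, and the tooth relatives (0) from 0 to 1 with a library left out. The 0 called neighbours became 1 with no filter, with a mean of at least 5 CPM, by DESeq2, by limma-voom and with the replicate block, and 0 to 2 with a library left out. The labels do not say that replicate numbers pair libraries, and deviations of same-numbered libraries correlated at 0.00429. The replicate block gave 1074 calls in all, 3 receptors, 6 kinases and proteases, 5 regulators, 2 mineral partners, 4 SPARC family genes and 0 tooth relatives. Of the neighbours, Gm26703 (-0.10 log2) turned to 0.03 with library totals, 0.31 by limma-voom and 0.32 with the block, and ranged from -0.89 (without sham 1) to 1.81 (without sham 2) with a library left out, also positive without ovariectomy 1 (0.30). Some neighbours turned with a library left out: Nudt9 ranged from -0.15 (without sham 1) to 0.42, also below 0 without ovariectomy 1, Zfp951 from -0.60 (without sham 2) to 1.55, also below 0 without ovariectomy 1 (-0.04), Gm15844 from -0.55 (without ovariectomy 1) to 0.77, also below 0 without sham 1 (-0.01), and D930016D06Rik from -0.008 (without ovariectomy 2) to 0.62. The cause was not tested. With 2 libraries a group and 0 to 5 counts, Dspp could not be compared.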
